A study of Glycine max with 20 samples.

Results

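Leaves of the soybean line called BC were compared between early and late times after soybean aphids were placed on them. The comparison used 8 of the 20 libraries of the series, set by line and hour, and was chosen with earlier results of these data known. The early side held the 4 libraries taken at 4 and 8 h of infestation, the late side the 4 taken at 24 and 48 h. Each time had 2 replicates. No uninfested library entered the comparison. The series holds a pair of near-isogenic lines, labelled rag2 (susceptible to the aphid) and Rag2 (resistant). The count table names them W and BC, and neither the table nor the labels tie these names to rag2 and Rag2. The lines are called BC and W here, and nothing is said of resistance. Every infested library came from plants with aphids, and the uninfested libraries are those labelled 0 h. Hours of infestation, leaf age and time of day therefore cannot be told apart.

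The soybean aphid feeds from the phloem through a stylet, and plants are known to answer such feeding with calcium, hormone and cell wall responses over hours to days. Leaf transcripts also follow the day, since the plant clock and light drive daily rises and falls in genes of photosynthesis, starch and growth. The labels do not give the clock hour of harvest. The table names its gene models by soybean Glyma identifiers and pairs them with no gene name or function. Of its 66210 models, 0 matched the gene table used for names. No gene function is therefore given, and the labelled tissue, leaf, could not be compared with marker genes.

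The early libraries held 9957702 to 17725967 reads in gene models and the late ones 7692936 to 38227436. The correlation between replicates was 0.921 for the 4 h pair, 0.925 for 8 h, 0.958 for 24 h, then 0.973 for 48 h (log2 CPM, reads scaled to a common library size, across the tested models), so the early pairs were the more scattered. No pair was alike enough to be 1 library deposited again (chi-square over its degrees of freedom 5.41 to 60.4, a value that also grows with depth). On the first principal component, replicate 1 of the 4 h pair (-79.0) and replicate 2 of the 8 h pair (-102) lay apart from the other 6 libraries, which lay between -11.1 and 58.6. Only the 48 h libraries correlated best with their own replicate. The 100 most abundant models took 11.4% ± 2.84 of the reads in the early libraries and 14.2% ± 0.91 in the late ones (SD, n = 4 each). That difference did not pass an exact two-sided permutation test (p = 0.114, 0.343 adjusted over 6 library measures), for which the smallest possible p is 0.0286.

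**Figure D1:**
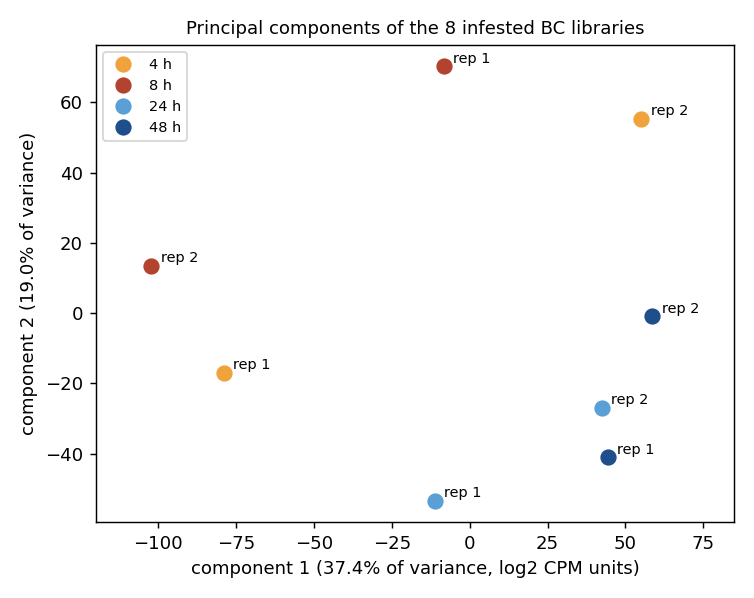
First 2 principal components of log2 CPM in the 8 infested BC libraries, 1 point per library, coloured by hour and marked with the replicate number. Replicate 1 of the 4 h pair and replicate 2 of the 8 h pair lie at the left, at -79.0 and -102, and the late libraries lie at or below -0.886 on the second component.

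Of 37541 models with enough reads, 332 differed between late and early infestation, or 0.884% of those tested (edgeR quasi-likelihood test, Benjamini-Hochberg adjusted p below 0.05). There were 154 models higher late (0.41%) and 178 lower late (0.474%). The median log2 fold change was 1.50 among the higher and -1.57 among the lower models, against -0.01 over all tested models. Of the 332, 292 differed by more than 2-fold, 104 by more than 4-fold and 25 by more than 8-fold. The 4 late and the 4 early libraries did not overlap in CPM for 306 of the 332. Over all tested models 3198 were separated in this way (8.52%), 1335 of them above and 1863 below in the late libraries.

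How many models passed depended on single libraries. The count was 141 with replicate 1 of the 4 h pair left out and 1053 with replicate 2 of that pair left out. Leaving out replicate 2 of the 8 h pair gave 184, and leaving out replicate 1 of the 24 h pair gave 41. Leaving out replicate 2 of the 24 h pair or replicate 1 of the 48 h pair gave 0 (edgeR, with 3574 and 3159 models reaching an unadjusted p of 0.05), and leaving out replicate 2 of the 48 h pair gave 1. In each of these fits all 332 models kept their sign. The median log2 fold change stayed between 1.44 and 1.57 for the higher and between -1.60 and -1.51 for the lower models. The 332 were chosen from the libraries that these fits largely share, so kept signs and sizes are no independent support. Leaving out both libraries that lay apart gave 666 models (303 higher, 363 lower), 274 of them among the 332.

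Split by hour, models passed for the late libraries against 8 h and none passed against 4 h. Against 8 h, 260 models differed at 24 h (157 higher, 103 lower, 0.693% of those tested) and 228 at 48 h (118 higher, 110 lower, 0.607%). Against 4 h, edgeR called 0 models at either late time, with 2366 (24 h) and 2804 (48 h) reaching an unadjusted p of 0.05. The 8 h libraries gave 0 calls against 4 h (2183 reaching that p), and 48 h gave 0 against 24 h (1037). DESeq2 made calls in all 4 of these comparisons, 276 and 307 for the late times against 4 h, 486 for 8 h against 4 h, and 15 for 48 h against 24 h. Limma with library weights called 1 model for 48 h against 4 h and 0 in the others. Whether the late times differ more from 8 h than from 4 h was not tested beyond the comparison of 8 h with 4 h itself.

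Both counts against 8 h also moved with single libraries. The count of 260 became 45 with replicate 2 of the 8 h pair left out, and 0 with either 24 h library left out (edgeR, 2858 and 2600 models reaching an unadjusted p of 0.05). It became 47 or 49 when a 48 h library was left out. The count of 228 became 481 or 462 when a 4 h library was left out, 141 or 71 for an 8 h library, and 57 or 52 for a 24 h library. It became 0 (edgeR, 2943 reaching that p) or 1 when a 48 h library was left out.

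**Figure D2:**
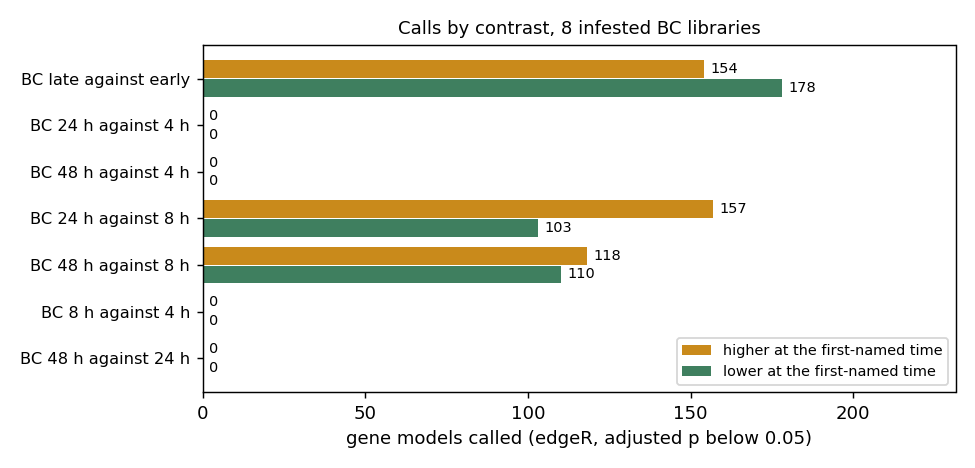
Number of gene models called in each contrast of the 8 infested BC libraries (edgeR, adjusted p below 0.05), with models higher at the first-named time in orange and lower in green. The late libraries differ from 8 h in 260 and 228 models and from 4 h in 0.

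Most of the 332 models were at an extreme at 8 h, which is described without a test because the same libraries made the calls. Of the 154 models higher late, 134 had their lowest mean at 8 h and 20 at 4 h. Of the 178 lower late, 144 had their highest mean at 8 h and 34 at 4 h. Together 278 of the 332 (83.7%) had such an extreme at 8 h, and 59.9% of all tested models had their lowest or highest mean there. In 273 of the 332 (82.2%) the 4 h mean lay between the 8 h mean and both late means. In 54 the 8 h mean lay between the 4 h mean and both late means. Over all 37541 tested models these counts were 11369 (30.3%) and 6443. A call of late against early favours both orders, so the share over all tested models is not a like measure. For the higher models the 24 h level exceeded that of 4 h by a median of 1.07 on the log2 scale and that of 8 h by 2.05. For the lower models these medians were -1.16 and -1.82. From 24 to 48 h the medians were -0.08 for the higher and -0.10 for the lower models.

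The models with the largest changes are given library by library. They were named by fold change among called models whose early and late libraries did not overlap and whose higher side averaged at least 5 CPM. Higher late, Glyma03g42260.1 on chromosome 3 had 40.5 and 37.1 CPM in the replicates after 4 h, 21.4 and 6.13 after 8 h, 265 and 246 after 24 h, then 253 and 226 after 48 h. Every late library was far above every early one. Its mean went from 26.3 ± 15.8 to 247 ± 16.3 CPM (SD, n = 4 each), and the log2 fold change was 3.43 (SE 0.39, edgeR Benjamini-Hochberg adjusted p = 0.0173). Glyma08g48040.1 on chromosome 8 had 0.488 and 1.96 CPM after 4 h, 1.07 and 0.445 after 8 h, 7.54 and 15.0 after 24 h, then 15.1 and 11.9 after 48 h. It was low at both early times. Its log2 fold change was 3.76 (SE 0.49, edgeR Benjamini-Hochberg adjusted p = 0.0235), from 54 reads over the early and 1108 over the late libraries.

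Lower late, Glyma09g07240.1 on chromosome 9 had 214 and 74.3 CPM after 4 h, 404 and 325 after 8 h, 23.2 and 17.5 after 24 h, then 3.59 and 13.0 after 48 h. As the naming rule required, every late library was below every early one. The peak was at 8 h. Its mean went from 254 ± 143 to 14.3 ± 8.27 CPM (SD, n = 4 each), and the log2 fold change was -4.14 (SE 0.52, edgeR Benjamini-Hochberg adjusted p = 0.0219). Glyma08g05510.1 on chromosome 8 had 2.32 and 1.34 CPM after 4 h, 8.13 and 15.9 after 8 h, 0.347 and 0.199 after 24 h, then 0.078 and 0.505 after 48 h. It too was highest at 8 h. Its log2 fold change was -4.14 (SE 0.49, edgeR Benjamini-Hochberg adjusted p = 0.0181), from 537 reads over the early and 23 over the late libraries. All 4 of these models lost their call when any 1 of the late libraries was left out, with log2 fold changes of 3.39 to 3.97 for the higher and -4.95 to -3.64 for the lower pair. Leaving out either 8 h library also ended the call of Glyma08g48040.1 (edgeR adjusted p = 0.0522 and 0.0768) and of Glyma09g07240.1 (0.0572 and 0.0576). Leaving out replicate 1 of the 4 h pair ended that of Glyma03g42260.1 (edgeR adjusted p = 0.0608) and of Glyma08g05510.1 (0.0563). Limma with library weights did not call Glyma08g48040.1 (adjusted p = 0.0555), the fit with 2 groups did not call Glyma08g05510.1 (0.064), and the fit without both libraries that lay apart did not call Glyma09g07240.1 (0.0659).

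**Figure D3:**
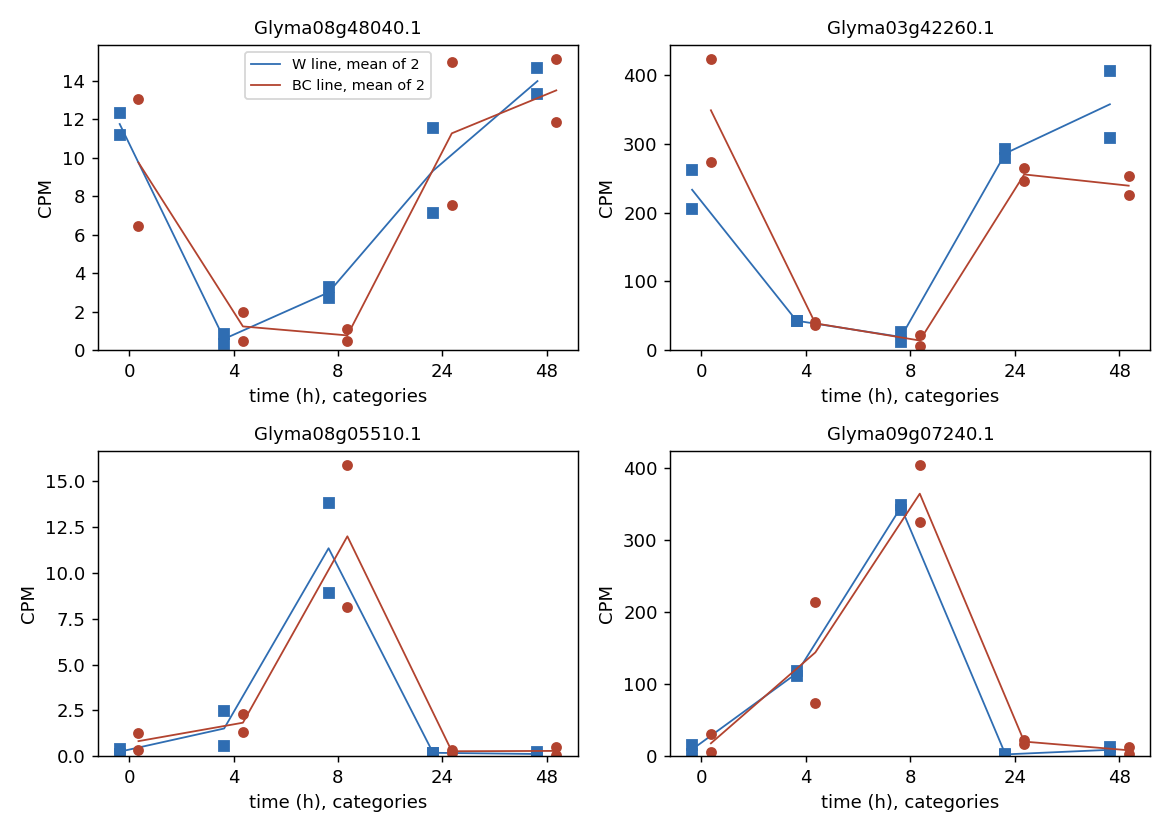
CPM of 4 named gene models at each sampled hour (evenly spaced categories) in BC (red circles) and W (blue squares), 1 point per library, with lines through the means of 2. Glyma03g42260.1 is at 205 to 424 CPM at 0 h, at 6.13 to 42.8 CPM at 4 and 8 h and at 226 to 407 CPM at 24 and 48 h over both lines, and both models of the lower row peak at 8 h.

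The steps away from 8 h were led by other models, named by their p. Glyma11g13910.1 had the smallest p among lower models at both late times, which share the 8 h libraries. It had 10.9 and 11.3 CPM after 4 h, 38.5 and 29.7 after 8 h, 2.36 and 2.76 after 24 h, then 1.79 and 2.27 after 48 h, with 4 h between 8 h and the late libraries. Relative to 8 h its log2 fold change was -3.72 by 24 h (SE 0.24) and -4.07 by 48 h (SE 0.26), with edgeR Benjamini-Hochberg adjusted p-values of 0.0109 and 0.0117. Glyma18g03870.1, higher at both late times, had 8.12 and 11.3 CPM after 4 h, 2.02 and 1.64 after 8 h, 16.2 and 14.9 after 24 h, then 19.0 and 17.9 after 48 h. It was lowest at 8 h, and again 4 h lay between. Relative to 8 h its log2 fold change was 3.10 by 24 h (SE 0.24) and 3.35 by 48 h (SE 0.25), with the same adjusted p-values. Both models lost each call when a library of the later time was left out.

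Between 4 and 8 h the model with the smallest p among those lower at 8 h was Glyma04g39970.1, which did not pass. It had 127 and 50.6 CPM after 4 h, 1.51 and 1.78 after 8 h, 14.9 and 8.45 after 24 h, then 9.28 and 6.81 after 48 h. The late libraries thus lay between the levels of both early times. From 4 to 8 h its log2 fold change was -5.74 (SE 0.56, edgeR Benjamini-Hochberg adjusted p = 0.07). It passed with DESeq2, in the edgeR fits of 16 and 20 libraries and in edgeR with no low-count filter. It did not pass in limma with library weights (adjusted p = 0.226) or in edgeR with the replicate number as a block (adjusted p = 0.0704).

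The W line gives a reading of the same models in libraries that played no part in calling them. All 332 models had the same sign of late minus early in W, where 64.5% of all 37541 tested models did. In W, 308 of the 332 (92.8%) passed the test themselves in the same direction, against 4.19% of all tested models. This is the edgeR fit of the 16 infested libraries of both lines, whose estimate of the spread includes the BC libraries. In that fit W had 1657 calls (711 higher late, 946 lower late), 4.31% of 38467 models, and BC had 941. The W count was 998 or 1014 when a W library of 4 h was left out and 790 or 983 for one of 8 h. It was 733 with replicate 2 of the W 24 h pair left out and 582 with replicate 1 of the W 48 h pair left out.

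The size of the change in W was near that in BC for the models called in BC. Its median log2 fold change was 1.64 for the 154 higher and -1.65 for the 178 lower models, and 134 of the 332 changed less in W than in BC. The 4 late W libraries lay wholly on the BC side of the 4 early ones for 255 of the 332 (76.8%), against 3421 of all 37541 tested models (9.11%). Glyma03g42260.1 ranged from 12.1 to 42.8 CPM in the early and from 280 to 407 CPM in the late W libraries. Glyma09g07240.1 ranged from 112 to 350 CPM early and from 1.88 to 12.4 CPM late.

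**Figure D4:**
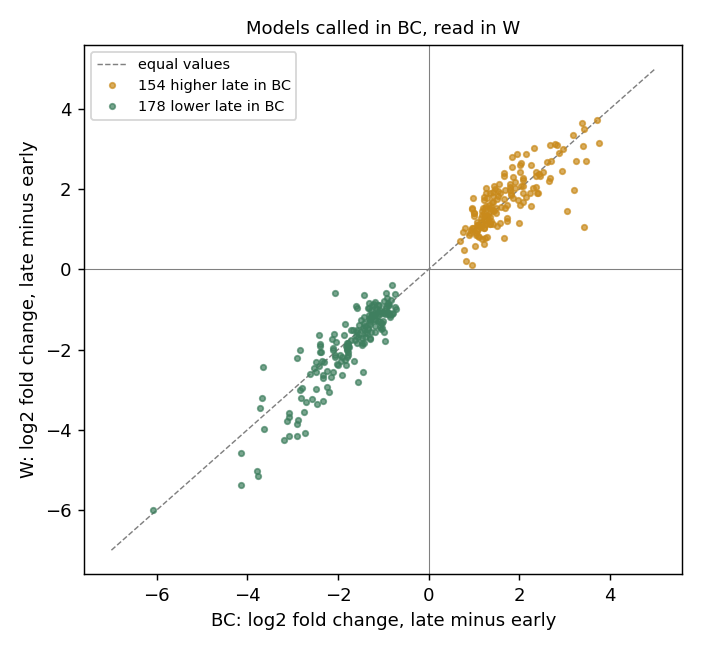
Log2 fold change of late minus early for the 332 models called in BC, with BC on the horizontal and W on the vertical axis, 1 point per model, models higher late in orange and lower late in green. All points lie in the quadrants of equal sign, around the dashed line of equal values, with W at medians of 1.64 and -1.65.

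Whether the change from early to late differed between BC and W was tested as the difference of both changes. No model passed (edgeR, 0 of 38467, smallest adjusted p = 0.76, with 2421 reaching an unadjusted p of 0.05). Limma with library weights called 0 and DESeq2 called 6, of which 1 was more positive and 5 more negative in BC. Among the 332 models the difference had a median size of 0.27 and a median standard error of 0.30 on the log2 scale. Over all 37541 models tested in BC these medians were 0.24 and 0.30. The difference exceeded 1 in 14 of the 332 and in 2597 of the 37541. The lines are thus not shown to respond alike in single models.

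The models with the smallest p for that difference had low or moderate levels. Glyma01g22990.1 had 1.16 and 1.45 CPM after 4 h and 0.315 and 0.400 after 8 h in BC, then 1.64 to 2.73 CPM in the late libraries. In W it ranged from 1.96 to 3.62 CPM early and from 1.03 to 3.01 CPM late. Its groups overlapped in W and not in BC, with a difference of 2.04 log2 units (SE 0.38, edgeR Benjamini-Hochberg adjusted p = 0.76). Glyma19g27270.1 ranged from 8.26 to 13.3 CPM early and from 6.24 to 8.44 CPM late in BC, against 6.90 to 9.10 early and 9.29 to 11.8 late in W. Its difference was -1.18 log2 units (SE 0.22, edgeR Benjamini-Hochberg adjusted p = 0.76). Glyma07g13790.1 differed most at 8 h, with 31.4 and 56.9 CPM in W and 0.82 and 0.445 CPM in BC, where it reached 27.1 and 8.45 CPM at 48 h. Its difference was 4.46 log2 units (SE 0.86, edgeR Benjamini-Hochberg adjusted p = 0.76). Glyma05g35880.1 ranged from 25.4 to 41.6 CPM early and from 16.85 to 28.1 CPM late in BC. In W it ranged from 18.9 to 26.4 CPM early and from 26.8 to 51.2 CPM late. Its difference was -1.30 log2 units (SE 0.25, edgeR Benjamini-Hochberg adjusted p = 0.76). Glyma19g27270.1, Glyma07g13790.1 and Glyma05g35880.1 passed with DESeq2, and Glyma01g22990.1 did not.

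The uninfested libraries, which had no part in the calls, stood nearer to the late side. For 312 of the 332 models the mean of both W libraries at 0 h was nearer to the late than to the early mean of W (log2(CPM + 0.5)), or 94.0% against 50.1% of all tested models. In BC, replicate 1 of the 0 h pair was nearer to the late mean for 314 of the 332 (94.6%, against 62.2% of all tested models). Replicate 2 of that pair was nearer to it for 246 (74.1%, against 51.5%). With the early mean set to 0 and the late mean to 1, W at 0 h had a median position of 0.751 for the higher and 1.00 for the lower models. The BC means in this comparison are those that chose the models, and the W means are not.

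Summed over the models, the same course was seen in each BC library. The 154 models higher late together took 0.397% and 0.43% of scaled reads after 4 h, 0.201% and 0.171% after 8 h, and 0.71% to 0.84% in the 4 late libraries. In the 0 h libraries of BC they took 0.862% and 0.792%. The 178 models lower late took 1.25% and 1.01% after 4 h, 1.95% and 1.59% after 8 h and 0.32% to 0.416% late, with 0.382% and 0.501% at 0 h. The early BC libraries lay wholly apart from the late and the 0 h libraries in both sums. Early and late BC libraries made the calls, so their separation from each other follows from the choice of models. The 0 h and W libraries had no part in that choice. In W the higher models took 0.188% to 0.523% early and 0.842% to 1.19% late, and the lower models 1.08% to 2.07% early and 0.321% to 0.382% late.

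**Figure D5:**
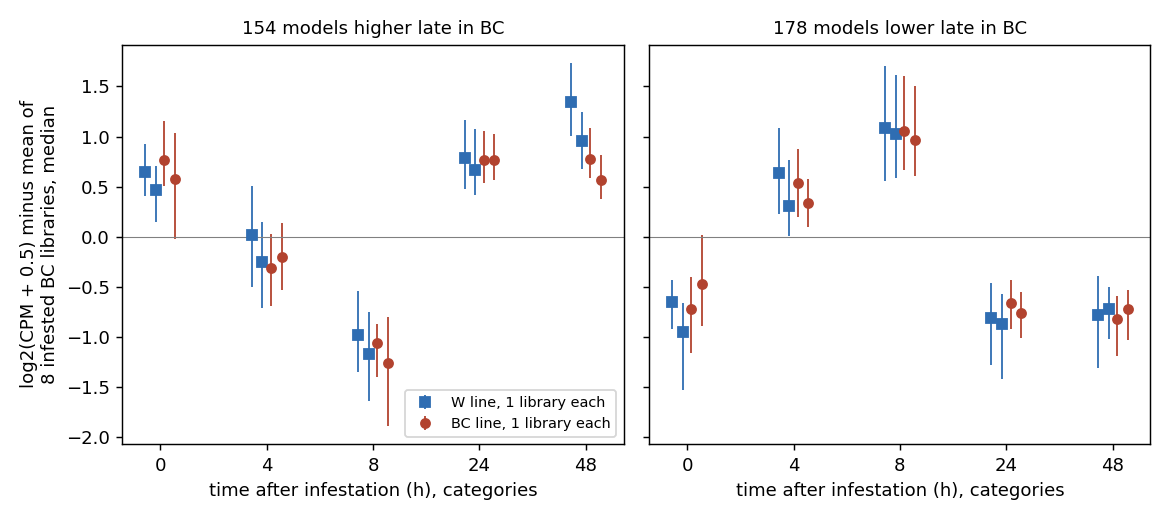
Median level of the 154 models higher late (left) and the 178 lower late (right) in each of the 20 libraries, as log2(CPM + 0.5) minus the model's mean over the 8 infested BC libraries, with bars from the lower to the upper quartile over models, BC as red circles and W as blue squares. In both panels and lines 4 h lies between 8 h and the group of 0, 24 and 48 h.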

How the data were processed

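Raw read counts for each gene model, without normalization, were deposited by the authors as a single table covering all 20 libraries. The submitters' processing notes name TopHat 1.4.1, HTSeq 0.5.3, Cuffdiff 1.3.0 and edgeR. The genome build, annotation and strand setting are not stated in the labels or table, so reads of overlapping, antisense or near-identical models may be mixed. The table's 5 rows without a gene were not used, and of these the reads in no feature amounted to 3.37% to 4.87% of the 8 libraries.

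Models were kept with filterByExpr, scaled by TMM and fitted with 4 time groups to the 8 BC libraries (edgeR 4.0.16 quasi-likelihood, robust, R 4.3.3, 4 residual degrees of freedom, biological coefficient of variation 0.285). The contrast was the mean of 24 and 48 h minus that of 4 and 8 h. The line difference was fitted to 16 libraries. P-values were two-sided and Benjamini-Hochberg adjusted over all tested models, with a threshold of 0.05. SE is the fold change divided by the root of edgeR's F. Levels are CPM with TMM over all 20 libraries. The labels do not say that replicates came from separate plants, so p-values measure the spread between these libraries. The test was checked on simulated counts. Those counts had the same spread at every hour, so the greater scatter of the early pairs was not covered. Alternatives used DESeq2 1.42.0, limma 3.58.1, other scalings, filters and library sets. The comparison and lists were chosen with earlier results of these data known. The 42 gene lists set up by function could not be matched to identifiers, and none is reported. With no gene names, at most 2 models per direction and comparison are named, by largest fold for late against early and by smallest p elsewhere. Chromosomes were read from the model names.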

Additional observations from a re-analysis of the deposited data

Results flagged for a closer look

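In the 4 early BC libraries, Glyma07g13790.1 was at 2.68 CPM in replicate 2 of the 4 h pair and at 0.488, 0.82 and 0.445 CPM in the others, so that 1 library lay far from the rest. In the 4 late BC libraries, the 100 most abundant models took 15.6% of the reads in replicate 1 of the 24 h pair and 13.6% to 13.9% in the others. About 1 in 20 groups of 4 is marked in this way by chance. The groups screened were the models picked for naming, by line and side, the library measures in BC and the summed levels. No other group was marked.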

How the results depend on the processing

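All 332 models kept their sign wherever they were tested, with median log2 fold changes of -1.60 to -1.51 for the lower models. For the higher ones they were 1.44 to 1.57 except in the fit with 2 groups, where the median was below that range. The counts moved. For late against early, the count was 332 with DESeq2's size factors in edgeR, 369 with upper-quartile scaling, 362 with a stricter filter and 342 with limma. It was 551 (276 higher, 275 lower) with no low-count filter, 1454 (811 higher, 643 lower) with DESeq2, 208 with 2 groups, 941 in the fit of 16 libraries and 685 in that of 20. Leaving out 1 library gave 0 to 1053, where the highest held 630 higher and 423 lower models. With no low-count filter the counts were 122 (8 h against 4 h), 36 (24 h against 4 h), 415 (24 h against 8 h), 30 (48 h against 4 h) and 442 (48 h against 8 h). In the same order they were 486, 276, 1117, 307 and 1429 with DESeq2, 166, 21, 595, 21 and 670 with 16 libraries, and 128, 16, 505, 10 and 467 with 20. DESeq2 also gave 15 for 48 h against 24 h, 6 for the line difference and 2856 for W, and limma gave 1 for 48 h against 4 h. Leaving out 1 library gave 0 to 3 for 8 h against 4 h, 0 to 383 for 24 h against 8 h, 0 to 481 for 48 h against 8 h and 582 to 1881 for W. Leaving out both libraries that lay apart, chosen after seeing the data, gave 666 for late against early, 515 for 24 h against 8 h and 1716 for 48 h against 8 h. The cause of these changes was not tested.

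A replicate block gave 173 models (87 higher, 86 lower) for late against early and 117 for 48 h against 8 h. It also ended the calls of Glyma08g48040.1 and Glyma09g07240.1 (edgeR adjusted p = 0.0563 and 0.0576). The labels do not say whether replicate numbers pair the samples. Replicate differences correlated between hours at -0.436 to 0.334, which cannot decide it from a single difference per hour. Of 392 alternative values for named models, 330 kept their side of the threshold, 43 lost the call and 19 gained it, and 0 changed direction.

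Precision is limited by 2 libraries per time, by replicate scatter at 4 and 8 h, and by depths of 7692936 to 38227436 reads. With 1 library left out, the lone library of its time is assumed to vary like the others. Marker genes and gene functions could not be used.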

Other observations

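The models called between late and early infestation in BC were spread over all 20 chromosomes, with 331 of the 332 on them. The share called ran from 0.622% of the tested models on chromosome 5 to 1.11% on chromosomes 8 and 14, against 0.884% over the whole table. The most uneven mixes were 11 higher and 2 lower late on chromosome 1 and 3 higher and 13 lower late on chromosome 20. They were picked from all 20 chromosomes after the counts were seen, and the others were nearer to even. The mix was not tested. Pairs of neighbouring called models were counted without a test, and few can arise where 0.884% of models are called. In the order of the model names, 3 adjacent pairs changed in the same direction, all lower late, on chromosomes 12, 14 and 20, and 1 pair changed in opposite directions. No run was longer than 2 models.

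Calls rose with the level of a model, and so with the reads behind it. Of the 12514 tested models with the lowest mean level (up to 5.05 CPM over the 8 libraries), 0.344% were called, against 0.783% of the 12513 in the middle and 1.53% of the 12514 highest (from 17.8 CPM). Both directions were present in each bin, at 21 higher and 22 lower, 46 and 52, and 87 and 104.

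Of the 1648 models called in W that were tested in the 8 BC libraries, 1574 had the same sign in BC (95.5%, against 64.5% of all tested models). In the fit of 8 BC libraries 308 of them were called (18.7%, against 0.884% of all tested models). In the fit of 16 libraries that made the W calls, 638 were called in BC, all with the same sign (38.7%, against 2.50%). Their median absolute log2 fold change was 1.08 in W and 0.68 in BC, and 1403 changed more in W. The choice of these models was made on W, which can favour larger sizes in W. Of the 332 models chosen on BC, 134 changed less in W than in BC. The cause of the difference in size was not tested.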
